A study of Homo sapiens with 4 samples.

Results

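The GIMAP genes (GTPases of the immunity-associated proteins) form a cluster on human chromosome 7. The members described here are GIMAP1, GIMAP2, GIMAP4, GIMAP5, GIMAP6, GIMAP7 and GIMAP8, taken as the rows whose Ensembl gene ID belongs to one of these symbols, each of them annotated as protein-coding. All 7 were found among the 64252 IDs of the deposited count table, and all 7 were among the 18817 genes that passed the filter on low counts. They were chosen by their log2 fold change between treated and control libraries, seen in an earlier look at the same 4 libraries, so their fold changes are a description: no p-value is given for them, and their count past a threshold stands only beside that of all genes.

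RNA was sequenced from J.gamma1, a derivative of the Jurkat line, which came from a human acute lymphoblastic leukaemia of T cells (T-ALL), that is known for lacking the signalling enzyme PLCG1. One group was cultured with 10 µM FB23-2, an inhibitor of the m6A RNA demethylase FTO, and the control group with DMSO vehicle at under 0.1%, both for 48 h. Each group held 2 biological replicates of this same line, with no other genetic or drug treatment given in the labels. The design asked which genes FB23-2 modulates in these cells.

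GIMAP proteins are small GTPases, related to the septin and dynamin GTPases, that sit on membranes of the lysosome, Golgi apparatus, endoplasmic reticulum and lipid droplets or move freely in the cytosol. They are expressed mainly in lymphocytes, rise as thymocytes mature, and are best known for keeping resting T cells alive: rats and mice without GIMAP5 lose most of their peripheral T cells. In T-ALL, an enhancer of the cluster has been described as bound by the TAL1 complex, and Notch signalling as raising GIMAP expression.

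The stretch of 80 bases before each start site is shown because the members lie side by side and their promoters share 1 short motif. The sequences are those of RefSeq on GRCh38.p14, which held a promoter for all 7 members, and are written 5′ to 3′ on the strand of the gene. Capitals mark AGGAAG, a core of the sites that ETS transcription factors bind, or its reverse complement CTTCCT.
GIMAP8: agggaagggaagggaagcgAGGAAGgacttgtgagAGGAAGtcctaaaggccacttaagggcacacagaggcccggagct
GIMAP7: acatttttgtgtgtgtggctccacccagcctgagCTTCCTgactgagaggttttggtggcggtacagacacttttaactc
GIMAP4: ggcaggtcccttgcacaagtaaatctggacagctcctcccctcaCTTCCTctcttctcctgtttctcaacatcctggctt
GIMAP6: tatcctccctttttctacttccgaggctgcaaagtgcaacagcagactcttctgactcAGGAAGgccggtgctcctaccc
GIMAP2: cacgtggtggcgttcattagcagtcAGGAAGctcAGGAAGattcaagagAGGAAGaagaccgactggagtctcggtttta
GIMAP1: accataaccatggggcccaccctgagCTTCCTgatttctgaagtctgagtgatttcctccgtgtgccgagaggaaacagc
GIMAP5: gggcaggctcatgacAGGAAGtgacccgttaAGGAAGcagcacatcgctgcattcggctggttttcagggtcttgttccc
These windows lie at chr7:150450550-150450629 for GIMAP8, chr7:150514792-150514871 for GIMAP7, chr7:150567310-150567389 for GIMAP4, chr7:150632386-150632465 for GIMAP6, chr7:150685626-150685705 for GIMAP2, chr7:150716533-150716612 for GIMAP1 and chr7:150737338-150737417 for GIMAP5. GIMAP6 is on the minus strand and the other members are on the plus strand. Start sites are those of RefSeq, while the gene coordinates given below are those of the GENCODE 29 annotation. By the latter, the windows of GIMAP5, GIMAP6 and GIMAP4 lie wholly inside their genes. Those of GIMAP7, GIMAP2 and GIMAP1 lie partly inside. The motif AGGAAG, read on both strands, occurred in 7 of 7 member windows and in 10.95% of the 35116 RefSeq promoters over the same 80 bases. Over the full 250 bases before the start it occurred in 28.71% of promoters, and the members held no match outside the 80 bases. The 11 matches in the members began 22 to 65 bases before the start, 3 of them in GIMAP2 and 2 each in GIMAP8 and GIMAP5. The motif was chosen after the sequences had been seen, and the 80 bases take in every match of the members, so nothing is read from these shares. A match describes letters, not a bound site.

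The windows of GIMAP7 and GIMAP1 also shared a run of 14 bases, CCTGAGCTTCCTGA, which spans the motif and begins 52 bases before the start of GIMAP7 and 60 before that of GIMAP1. It occurred in 3 promoters in all, and the third is the RefSeq entry of the read-through gene GIMAP1-GIMAP5, which has the same window as GIMAP1. All other pairs of members shared at most 10 bases in a row. Among 12 further short motifs searched on both strands of the 250 bases, the MYC E-box CACGTG was found in GIMAP4 and GIMAP2, against 6.345% of all promoters. The TAL1-type E-box CAGATG was found in GIMAP6 and GIMAP2, against 12.15% of promoters, and the RBPJ motif TGGGAA in GIMAP1 alone, against 20.85%. The RUNX motifs TGTGGT and TGCGGT, the GATA motifs AGATAA and TGATAA and the FOXO motif GTAAACA had 0 matches in members, with shares over all promoters of 10.98%, 5.843%, 9.167%, 6.655% and 2.979%. The remaining searches found CAGCTG (E-protein E-box) and AACGG (MYB) in GIMAP5, CCACCC (KLF) in GIMAP7 and GIMAP1, and TATAAA in GIMAP7. The shares of all promoters holding these were 13.99%, 16.49%, 31.26% and 10.72%. GC content of the 250 bases ran from 39.6% in GIMAP2 to 49.2% in GIMAP1, below the median of 58% over all promoters in 7 of 7 members.

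All 7 GIMAP genes had lower RNA levels with FB23-2, and in each of them both treated libraries lay below both control libraries. Levels are given as CPM, a gene's counts in proportion to its library's TMM-scaled total, as mean ± SD of 2 libraries per group. Their CPM summed to 153 and 145 in the FB23-2 libraries and to 294 and 279 in the control libraries, or 149 ± 5.91 against 286 ± 10.8 (SD, n = 2). Log2 fold changes of FB23-2 over control, given with their standard error (SE), ran from -0.67 for GIMAP1 to -2.17 for GIMAP8 with a median of -0.98. The median over all tested genes was 0.0014. All 7 members passed an adjusted p of 0.05 in edgeR's quasi-likelihood test in the lower direction, where 20.3% of all tested genes did. Likewise, groups that did not overlap in the lower direction were found for 34.5% of all tested genes. A drop past the same threshold of at least 2-fold was reached by GIMAP8, GIMAP7 and GIMAP4, as by 4.46% of tested genes. Since this contrast chose the members, nothing is read from these counts. In bulk RNA, fewer cells that express a gene and less RNA per cell cannot be told apart.

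**Figure D1:**
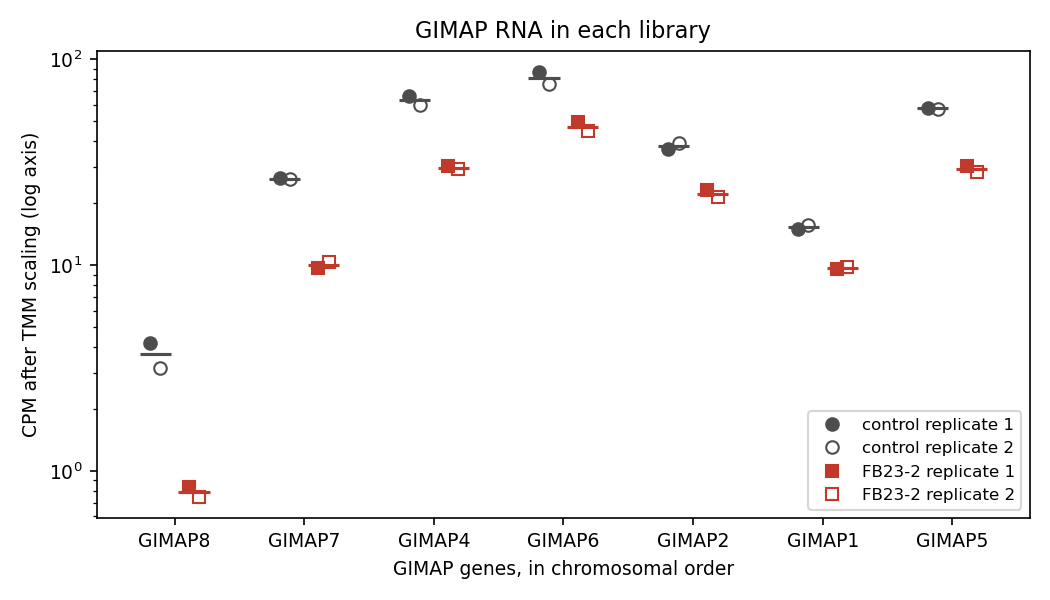
GIMAP RNA in each library. The vertical axis is CPM after TMM scaling on a log scale, circles are control and squares FB23-2 libraries, filled for replicate 1 and open for replicate 2, and bars are group means; GIMAP8 sits lowest, under 1 CPM with FB23-2, and in every gene both squares lie below both circles.

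GIMAP5 is the member most closely tied to lymphocyte survival, and its protein sits on lysosomal membranes. The gene (ENSG00000196329, chr7:150722253-150750033, hg38) was counted at 30.2 and 28.5 CPM with FB23-2 and at 58.1 and 57.6 CPM in control. The control pair was nearly equal, and both treated libraries were close to 1 level well under it. The log2 fold change was -0.98 ± 0.07 (SE), leaving 50.8% of the control level.

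GIMAP1, a Golgi-anchored member that mature B and T cells need to persist, lies directly before it (ENSG00000213203, chr7:150716557-150724284). It had 9.53 and 9.77 CPM with FB23-2 and 14.98 and 15.7 CPM in control. The smallest drop of the 7 genes was found here, with a log2 fold change of -0.67 ± 0.12 (SE), to 62.7% of control, and the groups still did not overlap. The counts of this gene pair are uncertain, because the annotated read-through GIMAP1-GIMAP5 shares 1717 exonic bases with GIMAP5, which is 28.5% of its exons, and 431 with GIMAP1, which is 8.9%. GIMAP1 and GIMAP5 also share 118 exonic bases on the same strand. The read-through itself was not analysed here.

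GIMAP2 and GIMAP7 are a pair in biochemistry: GIMAP2 forms GTP-bound scaffolds on lipid droplets, and GIMAP7 can stimulate its GTP hydrolysis. GIMAP2 (ENSG00000106560, chr7:150685697-150693641) had 23.2 and 21.3 CPM with FB23-2 and 36.9 and 39.2 CPM in control, a log2 fold change of -0.77 ± 0.08 (SE). GIMAP7 (ENSG00000179144, chr7:150514830-150521073) had 9.71 and 10.4 CPM with FB23-2 and 26.4 and 26.2 CPM in control, a log2 fold change of -1.39 ± 0.10 (SE). GIMAP7 was thus left at 38.2% of its control level and GIMAP2 at 58.5%. Within each gene, replicates differed by at most 0.12 on the log2 scale.

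GIMAP4, which has been linked to the pace of T-cell apoptosis, and GIMAP6, which binds the autophagy protein GABARAPL2, both lack a membrane anchor. GIMAP4 (ENSG00000133574, chr7:150567277-150573955) had 30.2 and 29.4 CPM with FB23-2 and 66.4 and 60.3 CPM in control. The fold change was -1.08 ± 0.07 (SE, log2), to 47.2% of control. GIMAP6 (ENSG00000133561, chr7:150625375-150632648) collected the most counts of the cluster, at 49.5 and 44.7 CPM with FB23-2 and 86.9 and 76.3 CPM in control. It had a log2 fold change of -0.78 ± 0.08 (SE), and its control replicates were 0.19 apart on the log2 scale, which is small beside the gap between groups.

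GIMAP8, the largest GIMAP protein with several GTPase domains in a row, was both the scarcest and the most lowered member. The gene (ENSG00000171115, chr7:150450630-150479392) had 32 and 26 counts with FB23-2 and 101 and 109 in control, which is 0.838 and 0.750 CPM against 4.19 and 3.17 CPM. Its log2 fold change was -2.17 ± 0.31 (SE), leaving 22.2% of the control level, and its SE was the widest of the 7. A higher log2 fold change was found in 99.2% of tested genes, against 87.1% for GIMAP1 at the other end. The pseudogene GIMAP3P had 5 counts in all 4 libraries together and was not tested.

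Along the chromosome the members follow each other as GIMAP8, GIMAP7, GIMAP4, GIMAP6, GIMAP2, GIMAP1 and GIMAP5 within 299.4 kb. The drop shrank in that order from GIMAP8 to GIMAP1, and GIMAP5 at the far end was the exception. GIMAP8, GIMAP7 and GIMAP4 were apart from one another by more than their SE. The values of GIMAP6, GIMAP2 and GIMAP1 lay within 1 SE of GIMAP1 of each other, so their order among themselves is not resolved. Without control replicate 1, GIMAP6 moved to the least lowered place.

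To compare levels between genes, CPM was divided by exon length in kb, counting every annotated exonic base. On this scale control cells held GIMAP4 at 28.9 ± 1.96, GIMAP7 at 20.95 ± 0.133, GIMAP6 at 20.9 ± 1.91 and GIMAP2 at 18.1 ± 0.776 CPM per kb. Lower down were GIMAP5 at 9.59 ± 0.0508, GIMAP1 at 3.17 ± 0.107 and GIMAP8 at 0.879 ± 0.173 CPM per kb (SD, n = 2 for each). GIMAP7 and GIMAP6 overlapped between control libraries, and the other neighbours did not. With FB23-2 the levels were 13.6 ± 0.267 for GIMAP4, 12.04 ± 0.863 for GIMAP6, 10.6 ± 0.635 for GIMAP2 and 8.01 ± 0.392 CPM per kb for GIMAP7. GIMAP5 at 4.87 ± 0.202, GIMAP1 at 1.99 ± 0.0359 and GIMAP8 at 0.190 ± 0.0149 CPM per kb stayed at the bottom.

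As a share of the summed CPM per kb of the cluster, GIMAP7 took 20.1% and 20.8% in the control libraries and 14.8% and 16.5% in the FB23-2 libraries. GIMAP2 took 16.8% and 18.7% in control and 21.1% and 20.3% with FB23-2. GIMAP4 kept the largest share in each library, from 26.3% to 28.9%. The order of levels depends on the length used, above all for GIMAP5 and GIMAP2. Their longest protein-coding transcripts have 2291 and 1449 bases, against 6031 and 2097 bases for all exons. Per kb of that transcript, control levels were 30.8 ± 2.09 CPM for GIMAP4, 26.2 ± 1.12 for GIMAP2, 25.25 ± 0.134 for GIMAP5, 20.96 ± 0.133 for GIMAP7 and 20.9 ± 1.91 for GIMAP6. With FB23-2 they were 15.4 ± 0.919 for GIMAP2, 14.5 ± 0.284 for GIMAP4, 12.8 ± 0.531 for GIMAP5, 12.05 ± 0.864 for GIMAP6 and 8.01 ± 0.392 for GIMAP7. GIMAP7 thus lay below GIMAP2 in both groups on this scale, and above it in control on the scale of all exons. GIMAP1 and GIMAP8 were the lowest on both scales.

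**Figure D2:**
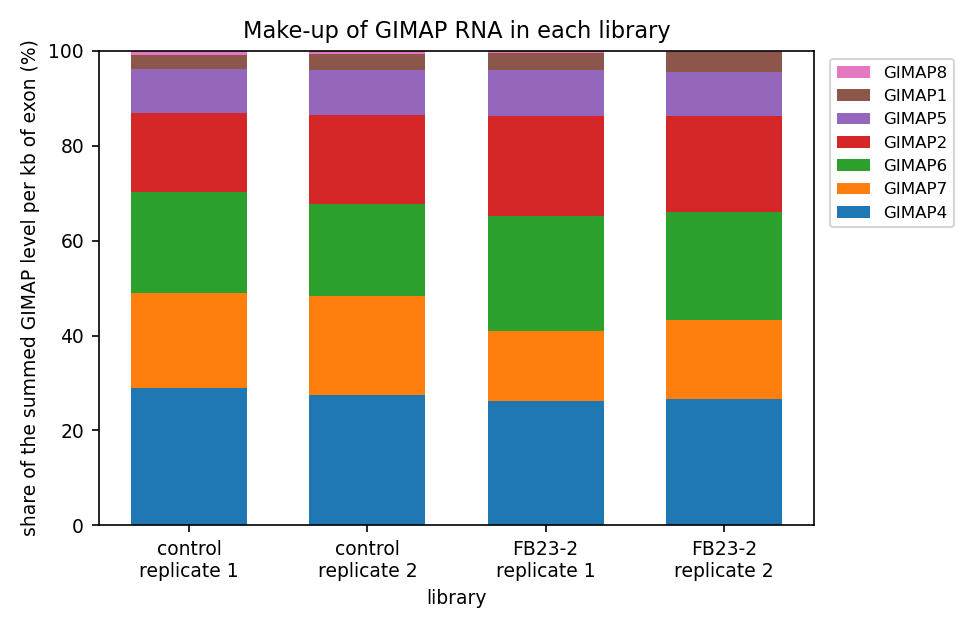
Make-up of GIMAP RNA in each library. Each bar is 1 library and sums to 100% of the cluster's CPM per kb of exon, with 1 colour per gene. The GIMAP7 band is narrower in both FB23-2 bars (14.8% and 16.5%) than in both control bars (20.1% and 20.8%).

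The letters of GGACT, a common form of the m6A motif, were counted in the longest protein-coding transcript of each member, since FTO acts on m6A. GIMAP7 and GIMAP4 held 0 copies, GIMAP8, GIMAP2 and GIMAP1 held 2 each, GIMAP6 held 3 and GIMAP5 held 4. Per kb this is 0 to 1.75, around a median of 0.942 over 13361 tested genes, with quartiles of 0.575 and 1.40. In order of rising density the members were at 38.2% and 47.2% of control (GIMAP7 and GIMAP4, both without a copy), 62.7% (GIMAP1), 22.2% (GIMAP8), 58.1% (GIMAP6), 58.5% (GIMAP2) and 50.8% (GIMAP5). No m6A measurement was used here, so the count describes sequence only.

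Of 24 flanking genes listed, 19 were tested, of which 8 fell and 3 rose in edgeR's test, with a median log2 fold change of -0.22. Among all tested genes, 20.3% fell and 21.8% rose (42.1% together). On chromosome 7 as a whole 174 of 878 tested genes fell and 180 rose. The nearest tested neighbour on the centromeric side, the zinc finger gene ZNF775 at 52.0 kb, had 31.0 ± 4.09 CPM with FB23-2 and 30.2 ± 6.78 CPM in control, a log2 fold change of 0.07 ± 0.18 (SE, edgeR adjusted p = 0.81). On the telomeric side the nearest tested gene of the list, KCNH2, a potassium channel gene 194.9 kb away, fell by 0.99 ± 0.08 (SE, log2), from 44.2 ± 1.37 to 22.3 ± 0.418 CPM.

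REPIN1, a zinc finger gene 76.6 kb from the cluster on the centromeric side that was named after its values were seen, fell by 0.69 ± 0.04 (SE, log2). Other flanking genes that fell were the autophagy gene ATG9B by 1.38 ± 0.14, ACTR3C by 1.33 ± 0.45 and ZBED6CL by 1.32 ± 0.13 (SE, log2). ZNF862 rose by 0.47 ± 0.08 and ATP6V0E2, a subunit of the vacuolar proton pump, by 0.33 ± 0.06 (SE, log2). The called genes nearest the cluster, REPIN1, ZBED6CL at 117.9 kb, ACTR3C at 126.9 kb and KCNH2, all fell. The 3 that rose lay 307.2 to 583.2 kb away. In that same range FASTK at 326.6 kb fell by 0.52 ± 0.08 and ABCF2 at 462.5 kb by 0.47 ± 0.05 (SE, log2). RARRES2 at 109.0 kb (log2 fold change 0.64 ± 0.36 SE) and LRRC61 at 112.5 kb (-0.12 ± 0.09 SE) did not pass the test. ACTR3C rested on 13 to 58 counts, and its call was lost under 5 of 10 alternatives (edgeR and DESeq2 adjusted p from 0.0212 to 0.292). Strand was not stated for the counting, and ATG9B shares 12.3% of its exonic bases with NOS3 on the opposite strand. ZNF862 and ATP6V0E2 share 26.3% and 12.8% of theirs with an antisense gene each. On the same strand, ABCF2 shares 45.8% and ZNF775 20.3% of exonic bases with another annotated gene, so their counts are uncertain too. TMEM176B, TMEM176A and AOC1, the listed genes closest to GIMAP5, had 0 to 13 counts and were not tested.

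**Figure D3:**
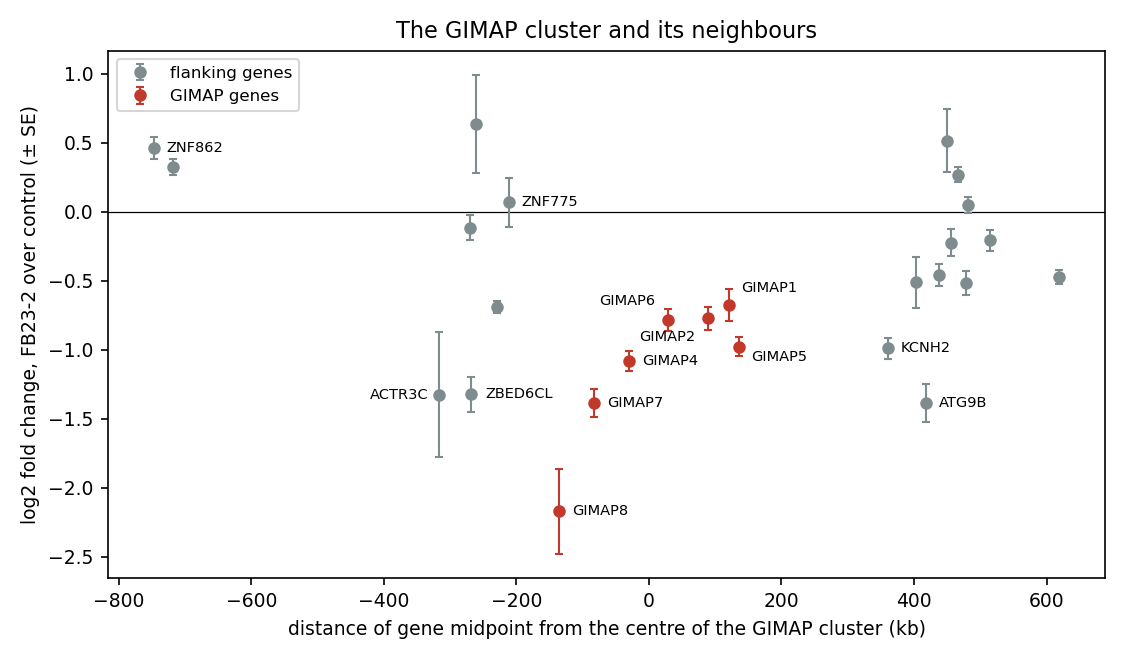
The cluster and its neighbours. The horizontal axis is the distance of each gene's midpoint from the cluster's centre in kb and the vertical axis the log2 fold change of FB23-2 over control with its SE. Red GIMAP points climb from -2.17 at GIMAP8 to -0.67 at GIMAP1, while grey flanking genes lie on both sides of 0.

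The other lists place the GIMAP genes among their partners and the programs around them, and each is given as counts and a median beside the 21.8% of all tested genes that rose and the 20.3% that fell. Among 7 reported protein partners, 2 rose and 2 fell, with a median of 0.11. HSPA8, the chaperone reported to bind GIMAP5, fell by 1.94 ± 0.04 (SE, log2), from 823 ± 11.6 to 214 ± 5.94 CPM. BCL2L1, an anti-apoptotic relative of BCL2, fell by 0.39 ± 0.05, while GABARAPL2, the partner of GIMAP6, rose by 0.35 ± 0.06 (SE, log2). BCL2 itself was 0.26 ± 0.08 higher, a call lost under 3 of 10 alternatives (edgeR and DESeq2 adjusted p from 0.00917 to 0.189).

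Of 12 factors of the T-ALL enhancer circuit, 11 were tested: 6 fell and 2 rose, with a median of -0.14. LMO1, a partner of TAL1, fell by 1.28 ± 0.17, MYB by 0.66 ± 0.04, NOTCH1 by 0.47 ± 0.06 and RUNX1 by 0.41 ± 0.04 (SE, log2). TAL1 itself fell by 0.25 ± 0.05 (SE, log2), and LDB1, TCF3 and TCF12 did not pass the test. GATA3, which drives T-cell commitment, rose by 0.62 ± 0.05, and RBPJ, the DNA-binding partner of Notch, by 0.32 ± 0.04 (SE, log2). ETS1, a lymphoid ETS factor, had 374 ± 8.36 CPM against 413 ± 3.39 CPM, and its log2 fold change of -0.14 ± 0.04 (SE) lost its call under 4 of 10 alternatives (edgeR and DESeq2 adjusted p from 0.00325 to 0.122). Among 12 Notch targets, 7 fell and 1 rose, with a median of -0.34. PTCRA, the pre-T-cell receptor chain, fell by 1.92 ± 0.25, CD3D by 0.76 ± 0.04, SHQ1 by 0.62 ± 0.05 and DTX1 by 0.52 ± 0.08 (SE, log2). HEY1, the gene that rose, was 0.98 ± 0.30 higher (SE, log2), and its call was lost under 5 of 10 alternatives. Among these were no filter on low counts (edgeR adjusted p = 0.0635) and DESeq2 (adjusted p = 0.053). HES1, HEYL, NRARP and IL7R did not pass the test in either direction. CD3D is also counted among the T-cell line markers below.

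The T-cell maturation and quiescence genes did not share the direction of the GIMAP genes: 13 of 20 rose and 2 fell, with a median of 0.53. CCR7, a homing receptor of naive T cells, rose by 1.71 ± 0.17, SLFN5 by 1.34 ± 0.05, the antiproliferative BTG1 by 1.11 ± 0.06 and FOXO1 by 0.95 ± 0.11 (SE, log2). TCF7 fell by 0.75 ± 0.04, and SATB1 by 0.20 ± 0.04 (SE, log2), a call lost when control replicate 2 was left out (edgeR adjusted p = 0.0849, against 0.000251 at the lowest of 10 alternatives).

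The list of other immune and dynamin-like GTPases also holds RASSF5, which is not itself a GTPase. Of its 20 genes 19 were tested, of which 9 rose and 3 fell, with a median of 0.21. RASSF5 was among those that fell, by 0.19 ± 0.04 (SE, log2). Of the interferon-inducible guanylate-binding proteins, GBP5 rose by 2.22 ± 0.13, GBP2 by 1.88 ± 0.28 and GBP1 by 0.63 ± 0.09, while GBP3 had a log2 fold change of -0.06 ± 0.14 (SE) without passing the test and GBP4 was not tested. The dynamin DNM3 rose by 1.00 ± 0.15 (SE, log2). MX1 fell by 1.98 ± 0.45 from at most 36 counts and RHOH by 0.30 ± 0.08 (SE, log2). Without control replicate 1 both calls were lost, at edgeR adjusted p = 0.0515 and 0.0779. RHOH lost its call under 3 of 10 alternatives in all (edgeR and DESeq2 adjusted p from 0.000573 to 0.0955). Without control replicate 1, 7 rather than 12 calls of this list were left. Septins, the cytoskeletal GTPases, were split, with 4 falling and 3 rising of 10 tested and a median of 0.07. SEPTIN3 fell by 0.52 ± 0.06 and SEPTIN6 by 0.39 ± 0.04, and SEPTIN11 rose by 0.48 ± 0.05 (SE, log2). SEPTIN4 (0.77 ± 0.23 higher), SEPTIN5 (-0.23) and SEPTIN9 (-0.12) lost their calls without FB23-2 replicate 2, and without either control replicate. SEPTIN9 also lost its call with library size scaling and with no filter on low counts, 5 of 10 alternatives in all.

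**Figure D4:**
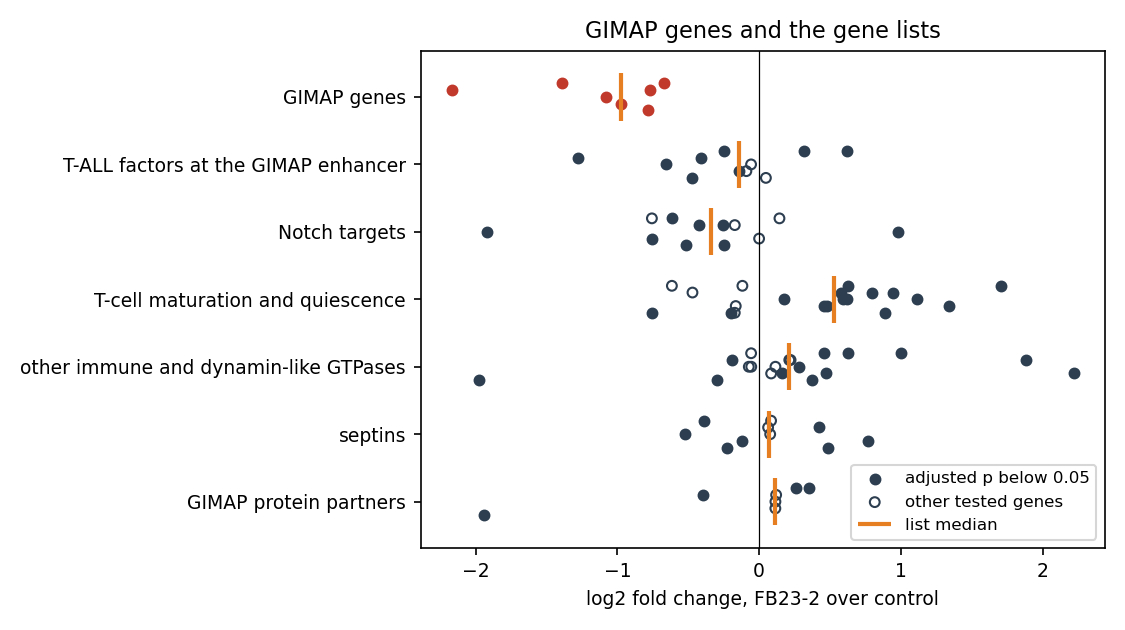
GIMAP genes and the gene lists. Each point is 1 tested gene at its log2 fold change of FB23-2 over control, filled where the adjusted p was below 0.05, and orange bars mark list medians. The GIMAP genes lie between -2.17 and -0.67 with a median of -0.98, and the maturation and quiescence genes have a median of 0.53.

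The 5 genes whose profile over the 4 libraries lay nearest to the median GIMAP profile, by Euclidean distance on centred log2 CPM among 15069 genes, were HMGA1, ENSG00000276537, PPA1, EIF3E and NCL, at 0.0119 to 0.0313. HMGA1, an architectural chromatin protein, had a log2 fold change of -0.98 ± 0.04 (SE) and NCL, the nucleolar protein nucleolin, one of -0.96 ± 0.04 (SE). Nearness to this profile fixes both.

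Library totals were 24615359 to 37804516 counts, so that 3 counts correspond to 0.0785 to 0.125 CPM. Chi-square per degree of freedom was 6.69 and 7.48 between replicates and 74.6 to 82.3 between groups. FTO had 61.8 ± 1.44 CPM with FB23-2 and 55.9 ± 0.0214 CPM in control (log2 fold change 0.14 ± 0.06 SE, edgeR adjusted p = 0.0737). PLCG1 RNA was present at 293 ± 2.49 and 265 ± 0.276 CPM, in a line known for lacking its product. Of 15 T-cell line markers, all of them tested, 10 were lower and 1 was higher, beside 20.3% and 21.8% of all tested genes. The marker that was higher, PLCG1, lost its call under 4 of 10 alternatives. Among the lower ones, CD5 lost its call under 6, CD4 under 2 and CD3E under 1. The 15 markers summed to 2093 and 2011 CPM with FB23-2 and to 2568 and 2543 CPM in control. The 7 markers of each other cell type summed to 60.6 to 66.4 CPM for B cells, 4.03 to 6.95 for NK cells and 3.34 to 16.7 for myeloid cells. Most of the B-cell sum was CD79A, at 43.4 ± 1.58 and 41.6 ± 3.81 CPM with FB23-2 and in control, and BLK, at 12.03 ± 1.12 and 12.2 ± 1.11 CPM. The B-cell genes PAX5 and MS4A1 had 0 to 11 counts. NKG7, which cytotoxic T cells also express, had 62 to 162 counts, the NK-cell gene KLRF1 was at 0 in all libraries, and the myeloid gene CD14 had 2 to 5 counts. The myeloid sum was 12.01 and 16.7 with FB23-2 against 3.74 and 3.34 in control, and CD68, a lysosomal gene, had 11.3 ± 3.51 CPM of it with FB23-2 and 0.820 ± 0.279 CPM in control. Endothelial cells also express GIMAP genes. Their markers summed to 56.5 and 52.4 CPM with FB23-2 and to 111 and 108 CPM in control, nearly all of it PECAM1, which lymphocytes also express, with CDH5 and TEK at 0 in all libraries. The part of lower T-cell marker levels in the lower GIMAP levels was not tested.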

How the data were processed

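The authors deposited 1 table of whole-number counts per gene for the 4 libraries, not normalized. HISAT2 2.2.0, StringTie and hg38 are named per the submitters' processing notes. Not given in the sources used here are the counting step, the strand setting and the annotation release. Replicates were independent biological samples, per the labels. All value columns matched a sample (0 left over).

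With edgeR 4.0.16, 18817 genes passed filterByExpr (minimum count 10) and were scaled by TMM and compared with glmQLFit (robust) and glmQLFTest in R 4.3.3. P values were Benjamini-Hochberg adjusted over all tested genes, with a threshold of 0.05. SE is the absolute log2 fold change over the square root of F. The biological coefficient of variation was 10.5%. The fit was tested on simulated data. Coordinates and exons came from GENCODE 29 (hg38), and promoters from RefSeq.

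Members and lists were chosen with earlier results of these data known. Named genes were all members and GIMAP3P. In each list they were the called genes with the largest change, up to 4 in the direction with more calls and up to 2 in the other. The nearest tested neighbours and the 5 nearest profiles (mean of at least 1 CPM) were added, with FTO and PLCG1. ETS1, NOS3, REPIN1, GBP3, GBP4, untested neighbours and cell type markers were named after their values were seen. The same holds for TAL1, LDB1, TCF3, TCF12, FASTK, ABCF2, RARRES2, LRRC61, HES1, HEYL, NRARP, IL7R and RASSF5. Alternatives were 3 other scalings, no filter, a replicate block, leaving out each library and DESeq2 1.42.0.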

Additional observations from a re-analysis of the deposited data

How the results depend on the processing

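All 7 GIMAP genes kept their direction under the 10 alternatives run, as a description of genes chosen by this contrast. Log2 fold changes of GIMAP8 ran from -2.39 to -2.004, of GIMAP7 from -1.43 to -1.34, of GIMAP4 from -1.15 to -1.03, of GIMAP5 from -1.04 to -0.93, of GIMAP6 from -0.88 to -0.71, of GIMAP2 from -0.85 to -0.71 and of GIMAP1 from -0.72 to -0.63. Leaving out 1 library left 5647 to 6596 genes called, against 7919 with all 4. The lone library of a group is then assumed to vary like the other group. The same step left 7 to 10 of the 12 calls among other GTPases and 4 to 7 of the 7 septin calls. The median log2 fold change of all genes stayed between -0.0393 and 0.0483, and with library size scaling 57.7% of calls were higher, against 51.8%, the largest shift of that share.

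Replicate numbers were not taken as pairing: same-numbered libraries had a correlation of deviations of 0.124 over 15069 genes, from only 2 pairs. With the replicate block 8268 genes were called, and the calls were 7 for GIMAP genes, 12 for flanking genes, 6 for partners, 8 for T-ALL factors, 8 for Notch targets, 16 for maturation genes, 12 for other GTPases and 7 for septins. The alternative that adds the counts of GIMAP1-GIMAP5 was not run, because no count row matched its ID. Depth limits GIMAP8 most, at 26 to 109 counts.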
